A study of Mus musculus with 9 samples.

Results

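Collagen genes were taken as the protein-coding genes of the mouse whose symbol is Col, a number, the letter a and a number, and 44 genes of 27 collagen types met this rule. All 44 are listed in both kinds of count file, among 38293 genes for GAS, the gastrocnemius muscle, and 46078 genes for cultured muscle cells. The GAS group held 3 biological replicates of whole muscle from adult female C57BL/6 mice. Primary myoblasts (MB), the proliferating precursor cells of muscle fibers, and myotubes (MT), obtained from MB after 3 days in low-serum differentiation medium, were of the same strain, with 2 biological replicates each. A further 2 MB cultures received 10 mM sodium-L-lactate, and the control MB received the PBS in which it was dissolved. All MB and MT grew on dishes coated with a basement membrane matrix. The labels do not say whether the replicates of cultured cells came from separate animals or separate cultures, so the p-values below measure the spread between these libraries. The study set MT against MB and lactate-treated against control MB to relate gene expression to histone lactylation, and GAS gives the level in the mature tissue.

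Collagens are proteins of the extracellular matrix in which 3 chains wind into a triple helix, and each gene encodes a chain of one type. Fibril-forming collagens build the fibers of tendon, bone, skin and cartilage, type IV builds the network of basement membranes, and type VI forms beaded filaments between the basement membrane and the fibers. Other types sit on the surface of fibrils, form short-chain networks, anchor epithelia or span the cell membrane. In skeletal muscle a basement membrane surrounds every fiber, and fibroblasts of the interstitium are a major source of the fibrillar collagens. In bulk RNA, fewer cells of a type and less RNA per cell cannot be told apart.

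RefSeq promoter windows on the assembly GRCm38.p6 were found for 35 of the 44 genes, and sequence is shown for a few genes on which results below turn. Col3a1 was the collagen gene with the highest level in GAS and rose in MT. Col6a1 and Col6a2 encode chains of the same type VI molecule and lie on chromosome 10 at a distance of 85161 bases. The 250 bases before the start were taken for Col3a1 (chr1:45311288-45311537, plus strand) and Col6a2 (chr10:76623631-76623880, minus strand). For Col6a1, the 126 bases without an annotated exon were taken (chr10:76726169-76726294, minus strand), which end 124 bases before its RefSeq start. Capitals mark TATAAA, the core of the TATA box, and GGGCGG, the GC box, on either strand.
Col3a1: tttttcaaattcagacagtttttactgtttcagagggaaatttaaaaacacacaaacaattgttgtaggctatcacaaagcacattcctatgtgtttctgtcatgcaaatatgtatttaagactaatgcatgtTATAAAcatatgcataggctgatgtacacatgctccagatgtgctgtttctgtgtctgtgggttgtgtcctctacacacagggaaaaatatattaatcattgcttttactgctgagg
Col6a1: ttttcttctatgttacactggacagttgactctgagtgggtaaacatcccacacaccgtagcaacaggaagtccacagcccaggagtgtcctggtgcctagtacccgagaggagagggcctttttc
Col6a2: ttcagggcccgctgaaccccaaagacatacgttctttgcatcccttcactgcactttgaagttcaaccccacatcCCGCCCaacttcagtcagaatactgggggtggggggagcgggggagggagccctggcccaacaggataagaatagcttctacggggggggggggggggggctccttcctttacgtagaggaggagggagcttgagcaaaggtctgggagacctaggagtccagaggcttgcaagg
Col3a1 held TATAAA from base 117 before the start, and Col6a2 held GGGCGG on the opposite strand from base 175. The bases shown for Col6a1 held none of the 4 motifs searched on both strands. For each collagen gene a single window was taken, the one nearest the annotated gene start, whereas the windows of all mouse genes were not reduced in this way. Among all 32851 mouse windows of 250 bases before a start, TATAAA was found in 12.4%, and among the 35 collagen windows in 5. The GC box was found in 32.7% of all windows and in 21 of the 35. The motif CCAAT was found in 33.8% of all windows and in 12 of the 35. The E-box CAGCTG, which myogenic factors can bind, was found in 13% of all windows and in 6 of the 35. Overlapping matches of different motifs were each counted, and a match is a string of letters and not a binding site.
Col4a1 and Col4a2, which encode the chains of the common type IV molecule, start head to head on chromosome 8. Their first exons share 22 bases (chr8:11312805-11312826, plus strand). No motif was searched or capitalized in these bases, which do hold the letters GGGCGG.
Col4a1 and Col4a2: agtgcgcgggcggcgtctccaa

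Between 19307793 and 19941574 reads per GAS library and between 5198247 and 10839516 per library of cultured cells were counted on genes, so that 3 counts correspond to at most 0.155 CPM in GAS and to between 0.277 and 0.577 CPM in the cultures. This limit and the intervals given below cover counting error only. MT replicate 1 stood apart from the other cultures. It had counts on 28599 genes, against 15548 to 17965 in the other 5 cultured libraries, and 8918 genes had counts in it alone. These genes took 1.23% of its counts. Of the 10 myogenic markers, 5 (Myog, Myf6, Ckm, Acta1 and Myh3) were higher in MT and 1, the progenitor marker Pax7, was lower. Myf6 had no count in MB, so it could be tested only because of its MT libraries. Among all genes tested, 11% were called higher and 6.86% lower. Myod1 had 1262 and 667 CPM in MB and 148 and 364 CPM in MT and was not called (adjusted p = 0.0528 in edgeR's test). The list summed to between 1163 and 2611 CPM in MB, 11375 and 13205 CPM in MT and between 47637 and 52502 CPM in GAS, most of it from Acta1, Myh3 and Des in MT and from Acta1 and Ckm in GAS. RNA of GAS was selected by its poly(A) tail, whereas cultured cells went through Smart-seq2, an amplification of cDNA from a few nanograms of RNA. Differences between tissue and culture therefore cannot be told apart from the protocol, and GAS was not tested against the cultures.

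Collagen transcripts took a larger share of the counts in MT than in the other groups. They made up 3.72% and 2.30% of all counts in the MT replicates and 0.165% and 0.154% in the MB replicates. The exact (Clopper-Pearson) 95% intervals of these shares were 3.71% to 3.73% and 2.29% to 2.31% in MT, and 0.162% to 0.168% and 0.151% to 0.157% in MB. In GAS the share was 0.0945% ± 0.0041 (SD, n = 3). Both MT libraries lay above all others, and the lactate-treated MB libraries, at 0.0550% and 0.20%, lay on either side of the control MB, with intervals of 0.0534% to 0.0567% and 0.196% to 0.204%. On a scale per length (RPKM, the CPM divided by the exonic length in kilobases), the summed level of the 44 genes was 4185 and 2568 RPKM in the MT replicates, 242.8 and 172.4 RPKM in MB and 118.9 ± 2.9 RPKM (SD, n = 3) in GAS. A mean level over 1 RPKM was found for 23 collagen genes in MT, 9 in MB and 18 in GAS. The genes without a count in any library of their group numbered 9 in MB, among them Col6a2, Col22a1 and Col28a1, 1 in GAS, which was Col10a1, and 0 in MT.

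**Figure D1:**
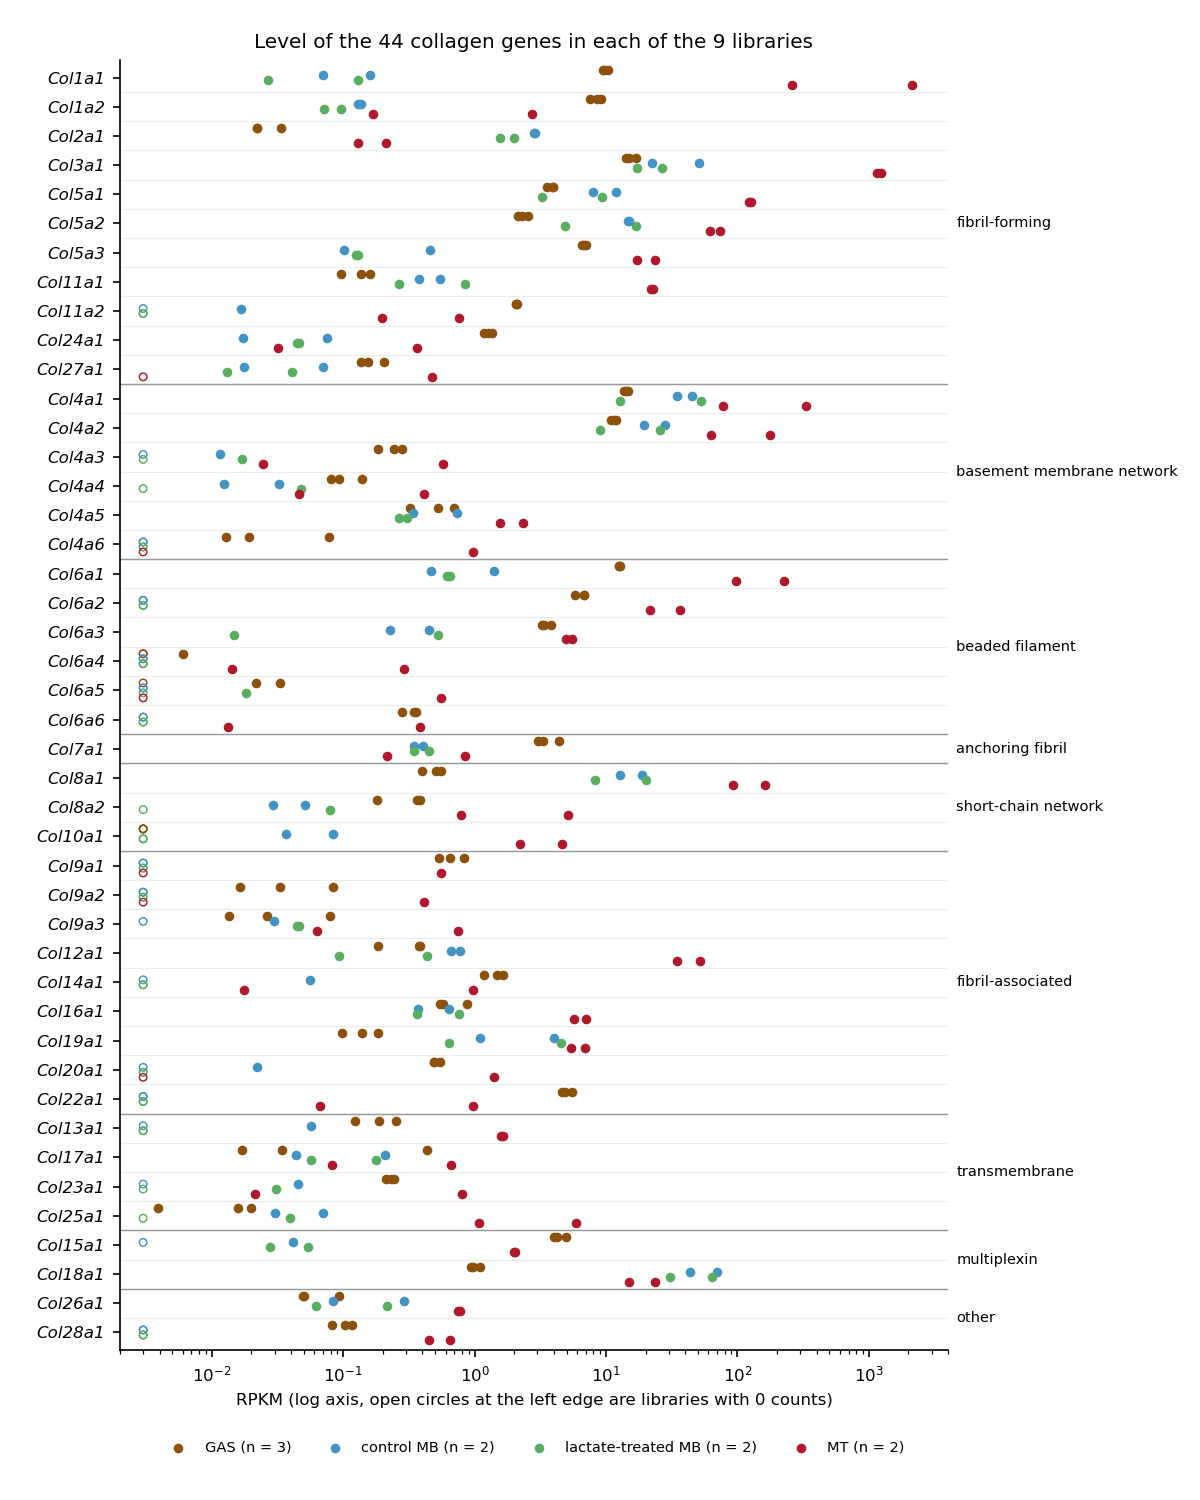
Level of each of the 44 collagen genes in every library, in RPKM on a log axis, grouped by structural class. Each point is a library, and open circles at the left edge are libraries with 0 counts. Both MT points of Col3a1 lie at 1144 RPKM or more, those of Col1a1 lie at 258 and 2139 RPKM, and the MT points of Col18a1 lie to the left of its MB points.

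In the comparison of MT with MB, 22 of the 44 collagen genes were higher in MT, 1 was lower, 6 were not called and 15 had too few counts to be tested. A gene was called at an adjusted p under 0.05 and an absolute log2FC over 0.5 in edgeR's quasi-likelihood test, which called 11% of all 12921 genes tested higher and 6.86% lower in MT. In both MB libraries, 17 of the 29 reached the filter's cutoff of 1.19 CPM, and 12 of those 17 were called higher in MT. In the other 12, at least 1 MB library was under the cutoff, and 10 of them were called. A gene that passes only because of its MT libraries has to be higher there, which does not hold for Col17a1, with 1 library of each group over the cutoff. Without the filter all 44 genes were tested and 21 were called higher, as were 1382 of all 30070 genes tested. Every MT library was above every MB library for 25 of the 29, against 33.5% of all genes tested, and below for 2, against 28.7%. The median log2FC was 3.94 over the 29 genes and 0.07 over all genes. With Col6a2 and Col28a1, which had no count in MB, at their lower bounds, the median over the 29 was 3.64. With a library left out, the filter let through a different number of collagen genes, 28 without MT replicate 1 and 44 without any of the others. Counts called in those fits are therefore not set beside the 22.

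**Figure D2:**
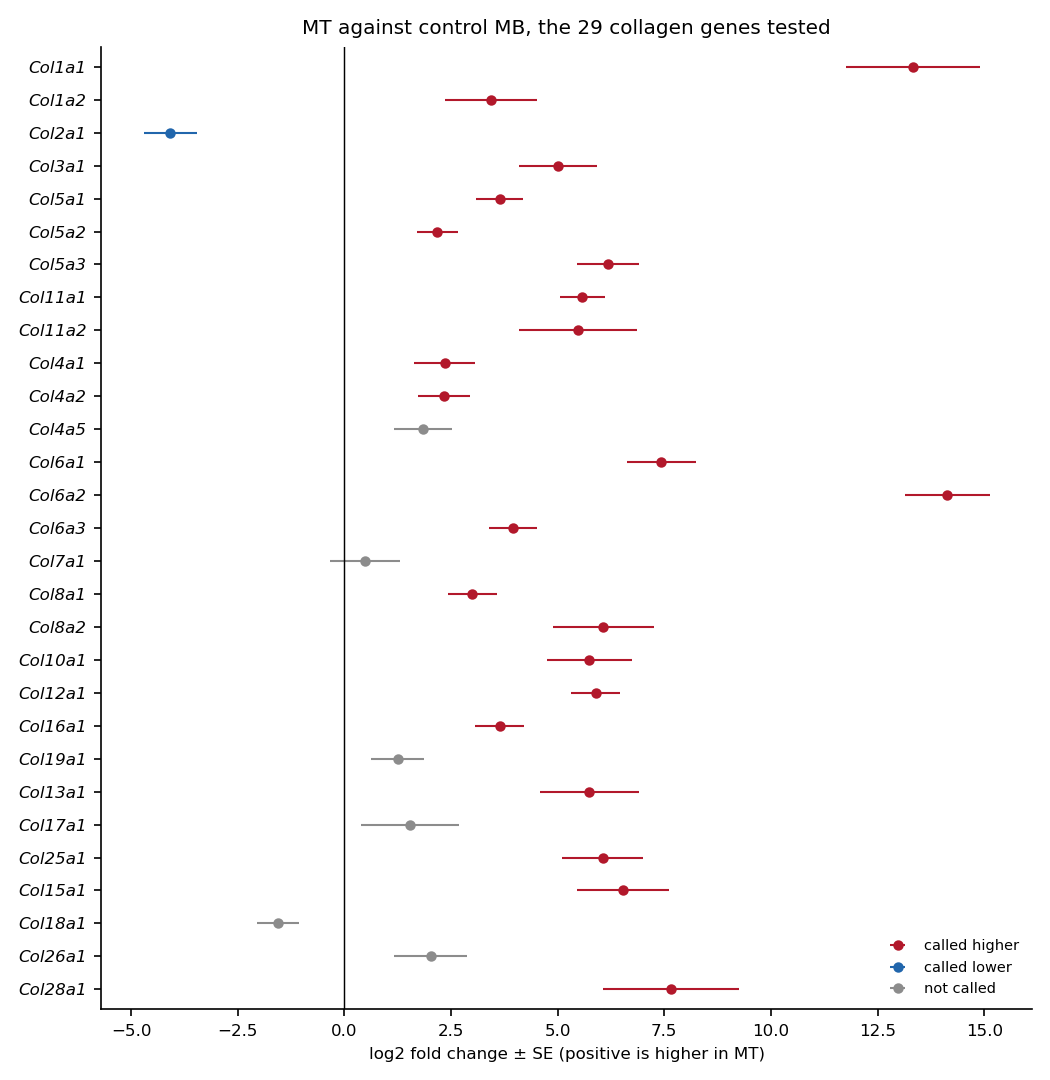
Log2 fold change of MT against control MB for the 29 collagen genes tested, with bars for the standard error of the edgeR fit. Red points are genes called higher, the blue point is Col2a1, called lower, and grey points are genes not called. Apart from Col2a1 and Col18a1, all points lie to the right of 0.

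Among the 11 fibril-forming genes, 8 were higher in MT and Col2a1 was lower. Col1a1 (ENSMUSG00000001506, chr11:94936224-94953042 on GRCm38, the build of all coordinates here) encodes the main chain of type I collagen, the most abundant collagen of tendon and bone. It had 8 and 4 counts in the MB replicates and 176154 and 13854 counts in the MT replicates, or 14037 and 1695 CPM in MT. Its log2FC was 13.34 ± 1.57 (SE, adjusted p = 0.000395). The MT replicates themselves differed 8.28-fold, and without MT replicate 1 the log2FC was 11.13. Col1a2 (chr6:4504814-4541544), the partner chain of Col1a1 in type I collagen, stayed near its MB level in one of the MT libraries. It had 13 and 14 counts in MB and 428 and 17 counts in MT, or 34.1 and 2.08 CPM in MT. The log2FC was 3.44 ± 1.08 (SE, adjusted p = 0.0496) and rested on MT replicate 1, since it was 0.33 (adjusted p = 0.939) without that library. It was also not called with RLE size factors (adjusted p = 0.0521) or in a joint fit of the 6 cultured libraries (adjusted p = 0.0588).

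The ratio of the type I chains differed between MT and muscle. Per length, Col1a1 stood at 779 and 1543 times the level of Col1a2 in the MT replicates and at 1.18 ± 0.08 times (SD, n = 3) in GAS. The exonic length of Col1a2 over all its annotated transcripts is more than that of its longest transcript, and with the longest transcripts the ratio was 371 and 735 in MT and 0.560 ± 0.036 (SD, n = 3) in GAS. In MB both genes had at most 14 counts. The MT values thus lay above those of GAS on both lengths, across different library protocols and with no test.

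Col3a1 (chr1:45311538-45349706), whose homotrimers form the thin fibers of vessels and of the muscle interstitium, was among the most abundant transcripts of MT. Its level was 1144 and 1243 RPKM in MT, 51.1 and 22.4 RPKM in MB and 15.3 ± 1.4 RPKM (SD, n = 3) in GAS. The log2FC was 5.01 ± 0.92 (SE, adjusted p = 0.00509). By mean RPKM, Col1a1 and Col3a1 ranked 17 and 18 among protein-coding genes in MT. The rank of Col1a1 rested on MT replicate 1, with 2139 RPKM there and 258 RPKM in MT replicate 2, where it lay below Col3a1. The MT replicates of Col3a1 differed far less than those of Col1a1, with a ratio of 1.09.

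Type V collagen starts fibrils and limits their width, and its 3 genes were all higher in MT. Col5a1 had 1069 and 1046 CPM in MT and 101 and 67.3 CPM in MB, and Col5a2 had 597 and 708 CPM in MT and 141 and 145 CPM in MB. Their log2FC was 3.64 ± 0.55 and 2.18 ± 0.48 (SE, adjusted p = 0.00181 and 0.0114). Col5a3, which was low in MB with 24 and 6 counts, had 1462 and 1315 counts in MT and a log2FC of 6.18 ± 0.72 (SE, adjusted p = 0.000371). All MT libraries were above all MB libraries for these genes, as they were for 33.5% of all genes tested.

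Both genes of type XI collagen, known from cartilage fibrils, were higher in MT. Col11a1 had 291 and 279 CPM in MT and 4.84 and 6.96 CPM in MB, with a log2FC of 5.57 ± 0.52 (SE, adjusted p = 0.000142), and its MT replicates differed 1.04-fold. Col11a2 had 65 and 11 counts in MT and 0 and 1 in MB, a count ratio of 60.2 with an exact 95% interval of 10.5 to 2409, and it was not called when either MB library was left out or without the filter on low counts, and could not be tested without MT replicate 1. In GAS the order of these chains was the reverse of that in MT, with 0.130 ± 0.032 RPKM of Col11a1 and 2.08 ± 0.02 RPKM of Col11a2 (SD, n = 3). Col2a1, the main collagen of cartilage, was the single gene called lower. It had 200 and 232 counts in MB and 15 and 16 counts in MT, with a log2FC of -4.08 ± 0.63 (SE, adjusted p = 0.00197), and 4, 4 and 6 counts in GAS. Sox9, a transcription factor that activates Col2a1 in cartilage, had 356 and 204 CPM in MB and 63.4 and 58 CPM in MT and was also called lower (adjusted p = 0.00972, named after its values were seen). The remaining fibril-forming genes, Col24a1 and Col27a1, were not tested, and Col24a1 was seen mainly in GAS, with 189, 205 and 174 counts there, 1 and 5 in MB and 35 and 2 in MT.

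Of the 6 type IV genes of basement membranes, 3 were tested and 2 were higher in MT. Col4a1 had 582 and 2486 CPM in MT and 337 and 257 CPM in MB, with a log2FC of 2.36 ± 0.72 (SE, adjusted p = 0.0448). Col4a2 had 414 and 1173 CPM in MT and 185 and 128 CPM in MB, with a log2FC of 2.33 ± 0.61 (SE, adjusted p = 0.0239). All 4 MT values were above all 4 MB values, yet the MT replicates differed 4.27-fold and 2.83-fold. Both calls rested on MT replicate 2, and without it the log2FC was 0.78 and 1.22 (adjusted p = 0.466 and 0.201). The adjusted p of Col4a1 was 0.0532 without MB replicate 2 and 0.0795 in the joint fit of the 6 cultured libraries. The pair, whose shared bases are shown above, stayed within a ratio of 1.15 to 2.04 in all 9 libraries, with 1.23 ± 0.07 times more Col4a1 than Col4a2 per length in GAS (SD, n = 3), 1.62 and 1.78 in MB, and 1.25 and 1.88 in MT. Col4a5, which belongs to the tissue-restricted type IV chains, had 131 and 129 counts in MT and 38 and 20 in MB and was not called (log2FC 1.84 ± 0.68, SE, adjusted p = 0.0855), while Col4a3, Col4a4 and Col4a6 were not tested. Col4a3 had 48, 36 and 54 counts in GAS, and Col4a4 29, 17 and 19. In the cultures Col4a3, Col4a4 and Col4a6 had 72, 55 and 98 counts in MT replicate 1 and at most 4 in any other library.

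Type VI collagen, whose loss causes inherited muscle disease, was low in MB and higher in MT. Col6a1 had 47 and 18 counts in MB and 12433 and 3485 counts in MT, with a log2FC of 7.43 ± 0.81 (SE, adjusted p = 0.000257). Col6a2 had no count in either MB library and 3824 and 1469 counts in MT, which puts it at least 660-fold higher in MT against 3 counts per MB library (adjusted p = 8.72e-05). Col6a2 passed the filter only through its MT libraries, which therefore had to lie above the MB libraries. Col6a3, the chain that completes the molecule, had 41 and 24 counts in MB and 832 and 485 in MT, with a log2FC of 3.94 ± 0.56 (SE, adjusted p = 0.00129). For all 3 genes every MT library lay above every MB library, and all 3 stayed called with any library left out. Per length, Col6a1 exceeded Col6a3 by 40.8 and 19.6 times in the MT replicates and by 3.65 ± 0.32 times (SD, n = 3) in GAS. Col6a4, Col6a5 and Col6a6, whose chains can take the place of Col6a3, had 0 counts in MB and 31, 65 and 44 counts in MT replicate 1 against 1, 0 and 1 in MT replicate 2, and were not tested. The windows shown above for Col6a1 and Col6a2 share none of the 4 motifs searched.

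**Figure D3:**
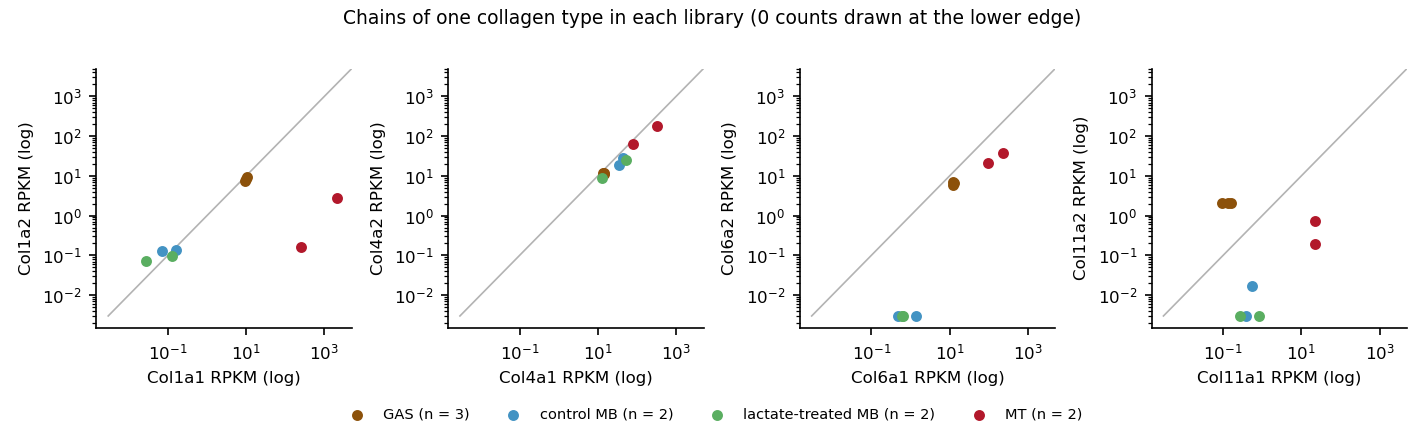
Levels of the chains of types I, IV, VI and XI against each other in RPKM on log axes, 1 point per library, with a grey line where both chains are equal and libraries at 0 drawn at the lower edge. Col4a1 and Col4a2 stay near the line in all 9 libraries, whereas the MT libraries lie far below it for Col1a1 and Col1a2 and GAS and MT lie on opposite sides of it for Col11a1 and Col11a2.

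The short-chain collagens form hexagonal networks, as type VIII does in vessel walls and the cornea, and all 3 genes were higher in MT. Col8a1 had 1270 and 729 CPM in MT, 99.5 and 148 CPM in MB and between 3.11 and 4.36 CPM in GAS, with a log2FC of 3.00 ± 0.57 for MT against MB (SE, adjusted p = 0.00566). Col8a2 had 44 and 188 counts in MT and 1 and 2 in MB, a count ratio of 61.3 with an interval of 20.7 to 299, and was not called without MT replicate 2 (adjusted p = 0.0533). Col10a1, a marker of hypertrophic cartilage, had 87 and 118 counts in MT and 2 and 1 in MB, a count ratio of 54.1 with an interval of 18.3 to 265. It had 0 counts in all 3 GAS libraries, which allows up to 0.155 CPM. All MT libraries lay above all MB libraries for the 3 genes, as they did for 33.5% of all genes tested. Col8a2 and Col10a1 were under the filter's cutoff of 1.19 CPM in both MB libraries, so this had to hold for them.

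Of the 9 fibril-associated genes, which encode collagens that decorate the surface of fibrils, only 3 could be tested, and 2 of them were called. Col12a1, which links type I fibrils to the surrounding matrix, had 785 and 530 CPM in MT and 10.1 and 11.9 CPM in MB, with a log2FC of 5.89 ± 0.58 (SE, adjusted p = 0.000165). In GAS it had between 2.79 and 5.80 CPM. Col16a1 had 38.4 and 47.7 CPM in MT and 4.31 and 2.51 CPM in MB, with a log2FC of 3.64 ± 0.57 (SE, adjusted p = 0.00222). Col19a1, known from developing muscle, had 37.2 and 47.3 CPM in MT and 7.58 and 27.6 CPM in MB and was not called (log2FC 1.25 ± 0.61, SE, adjusted p = 0.188), although it was without MB replicate 2 (log2FC 2.40, adjusted p = 0.000617). Col22a1, a collagen of the myotendinous junction, showed a different distribution. It had 997, 845 and 871 counts in GAS, 0 in both MB libraries, 112 in MT replicate 1 and 5 in MT replicate 2. Col14a1, which like type XII binds to type I fibrils, had 163, 205 and 221 counts in GAS, 3 and 0 in MB and 86 and 1 in MT.

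Among the 4 transmembrane collagens, Col13a1 and Col25a1 were higher in MT. Col13a1 helps to form the neuromuscular junction, and Col25a1 is needed for motor axons to innervate developing muscle. Col25a1 had 174 and 628 counts in MT, 3 and 8 in MB and 1, 4 and 5 in GAS, with a log2FC of 6.05 ± 0.95 for MT against MB (SE, adjusted p = 0.00224). Its MT replicates differed 5.54-fold, and without MT replicate 2 the log2FC was 4.18. Col13a1 had 91 and 62 counts in MT and 2 and 0 in MB, a count ratio of 60.6 with an interval of 16.5 to 505, and between 11 and 23 counts in the deeper GAS libraries. Col17a1, a collagen of hemidesmosomes, had 50 and 4 counts in MT, overlapped with MB at 2 and 11, and was not called (adjusted p = 0.384).

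The multiplexins, which occur in basement membranes, moved in different directions. Col18a1, whose protein releases endostatin, had the highest level of all collagen genes in MB, with 69.3 and 43.6 RPKM, against 14.9 and 23.6 RPKM in MT and 1.00 ± 0.09 RPKM (SD, n = 3) in GAS. Both MT libraries were below both MB libraries, with a log2FC of -1.56 ± 0.49, but the adjusted p was 0.0507 and the gene was not called. It was called lower by DESeq2 (adjusted p = 0.0122) and without MB replicate 2 (log2FC -1.92, adjusted p = 0.010). Col15a1 had 161 and 104 counts in MT and 2 and 0 in MB, a count ratio of 105 with an interval of 28.8 to 871 (adjusted p = 0.00286), and 4.39 ± 0.47 RPKM (SD, n = 3) in GAS against 2.02 and 2.00 RPKM in MT.

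Of the remaining genes, Col28a1 had no count in MB and 40 and 18 counts in MT, at least 7.34-fold higher, and its call was lost when either MB library was left out and without the filter on low counts. Col26a1 had 80 and 50 counts in MT and 18 and 6 in MB (log2FC 2.03 ± 0.86, SE, adjusted p = 0.129). Col7a1, the collagen of anchoring fibrils, had 109 and 18 counts in MT and 32 and 31 in MB, and its groups overlapped (log2FC 0.49 ± 0.82, SE, adjusted p = 0.718). It was higher in GAS, with 3.58 ± 0.71 RPKM (SD, n = 3), than in any cultured library, where it reached at most 0.844 RPKM.

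The 15 genes that were not tested had counts chiefly in MT replicate 1 among the cultures. There they had between 16 and 112 counts with a median of 58, whereas MT replicate 2 had between 0 and 5, with 6 genes at 0, and the MB libraries between 0 and 7. Per kilobase of exon, they had between 3.64 and 17.5 counts in MT replicate 1 with a median of 6.91. Among the cultures, only 3 of the 15 were counted in that library alone. The 3854 protein-coding genes counted in that library alone had a median of 3.24 counts per kilobase and a 90th percentile of 18.2. The part of this broad signal in the values of low collagen genes was not tested. In the GAS replicates, the median over the 15 was 35, 36 and 39 counts, with 4, 5 and 3 genes at 5 counts or fewer, and the mean levels of Col22a1, Col14a1 and Col24a1 exceeded 1 RPKM.

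The make-up of collagen transcripts differed between the groups. The fibril-forming class took 84.0% and 67.9% of the summed collagen RPKM in the MT replicates, 33.7% and 28.5% in MB and 42.2% ± 1.6 (SD, n = 3) in GAS. Type VI took 6.44% and 4.83% in MT, 0.762% and 0.405% in MB and 19.2% ± 0.3 (SD, n = 3) in GAS. The multiplexins took 28.6% and 25.3% in MB, nearly all of it Col18a1, 0.404% and 0.998% in MT and 4.55% ± 0.58 (SD, n = 3) in GAS, where Col15a1 made up 3.29% to 4.24% and Col18a1 0.766% to 0.949%. Type IV took 30.4% and 31.4% in MB, 22.3% ± 0.7 (SD, n = 3) in GAS, and 3.44% and 20% in the MT replicates, which lay far apart. Within MT, type I alone ranged from 10.1% in replicate 2 to 51.2% in replicate 1.

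**Figure D4:**
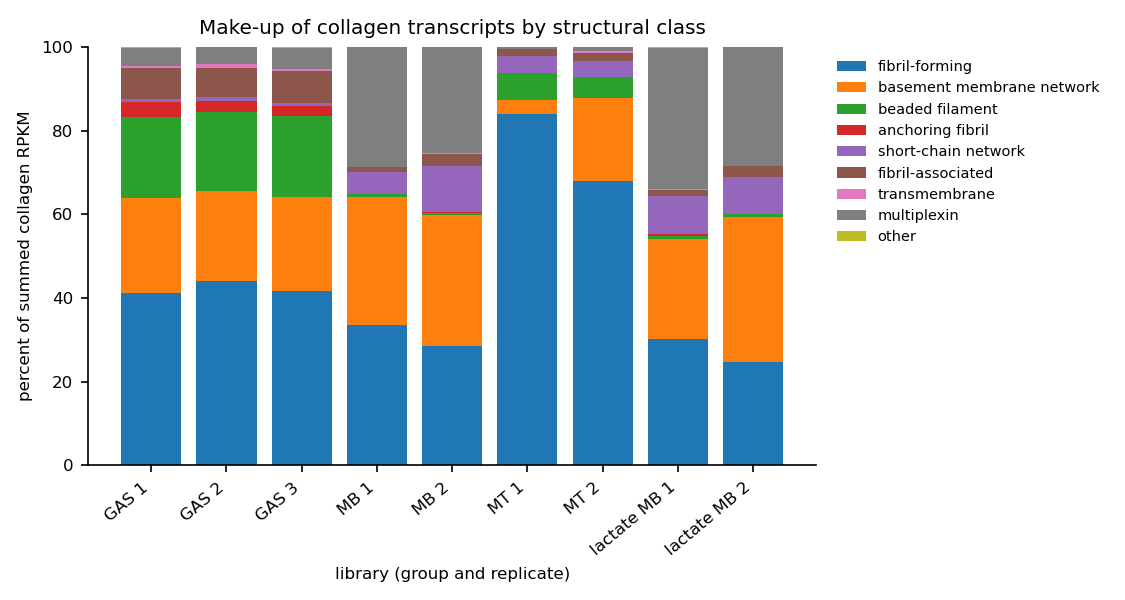
Percent of the summed collagen RPKM in each library that fell to each structural class of collagen. Each bar is a library. The fibril-forming class fills 67.9% or more of both MT bars, the multiplexins 25.3% or more of the MB bars, and type VI (beaded filament) between 18.9% and 19.4% of the GAS bars.

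In GAS the collagens of several classes stood at similar levels. Col3a1 (15.3 ± 1.4 RPKM), Col4a1 (14.1 ± 0.5), Col6a1 (12.5 ± 0.1), Col4a2 (11.5 ± 0.5), Col1a1 (9.87 ± 0.46) and Col1a2 (8.43 ± 0.84) led the order (SD, n = 3). The replicates of Col3a1 (14.1 to 16.9 RPKM) and Col4a1 (13.7 to 14.6 RPKM) overlapped, those of Col6a1 (12.5 to 12.7 RPKM) lay below Col4a1 and above Col4a2 (11 to 11.9 RPKM), and Col1a1 and Col1a2 did not overlap. With the longest transcript as length, Col3a1 stayed first with 27 ± 2.6 RPKM and Col1a2 moved to rank 2 with 19.6 ± 2.0 RPKM, so that the order below the first rank depends on the length used. Next came Col5a3, Col6a2, Col22a1 and Col15a1, between 4.39 and 6.83 RPKM. By rank, Col3a1 was at position 1830 among protein-coding genes in GAS. Several genes that were abundant in MT were low here, with 0.486 ± 0.082 RPKM of Col8a1, 0.314 ± 0.113 of Col12a1 and 0.130 ± 0.032 of Col11a1 (SD, n = 3). Conversely, Col1a2, Col7a1, Col11a2, Col14a1, Col15a1, Col22a1 and Col24a1 had each a higher CPM in all 3 GAS libraries than in all 6 cultured libraries.

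Some collagen genes lie next to each other. Col3a1 and Col5a2 lie tail to tail on chromosome 1, separated by 24614 bases, and both were higher in MT, with a log2FC of 5.01 and 2.18. Col6a2 and Col6a1, which point the same way, were both higher. Col9a1 and Col19a1 lie tail to tail at 9205 bases on chromosome 1, and Col9a1, which was not tested, had 0 counts in MB and 35 and 0 in MT, where Col19a1 had 58 and 242 in MB and 467 and 387 in MT. Col4a5 and Col4a6 lie head to head on chromosome X at 1308 bases, and Col4a5 had 38 and 20 counts in MB and 131 and 129 in MT, while Col4a6, which was not tested, had 0 in MB and 98 and 0 in MT. Exons of Col4a3 overlap a transcript on the opposite strand over 5.6% of their length and those of Col9a3 over 6.1%. No other gene overlaps a collagen gene over more than 1.9% of its exons, and whether the counting used strand is not stated.

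In the comparison without a replicate block, no collagen gene was called after lactate treatment. At the study's threshold, an unadjusted p under 0.01 with an absolute log2FC over 0.5, edgeR's quasi-likelihood test called 0 of 11804 genes (0.0%) and 0 of the 18 collagen genes that could be tested. The study itself used edgeR at this threshold and reported a small set of genes, some higher and some lower. It does not state which edgeR test it used, and the source of the difference was not tested. An unadjusted p under 0.05 was found for 5 of all genes (0.0424%) and 0 of the 18. DESeq2 called 1 gene at the study's threshold, which was no collagen gene, and 0 collagen genes had a p under 0.05 in it. The log2FC was negative for 14 and positive for 4 of the 18, with a median of -0.39 against -0.003 over all genes. For 4 genes, Col1a2, Col2a1, Col4a5 and Col12a1, both lactate-treated libraries lay below both controls, as they did for 7.56% of all genes tested.

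**Figure D5:**
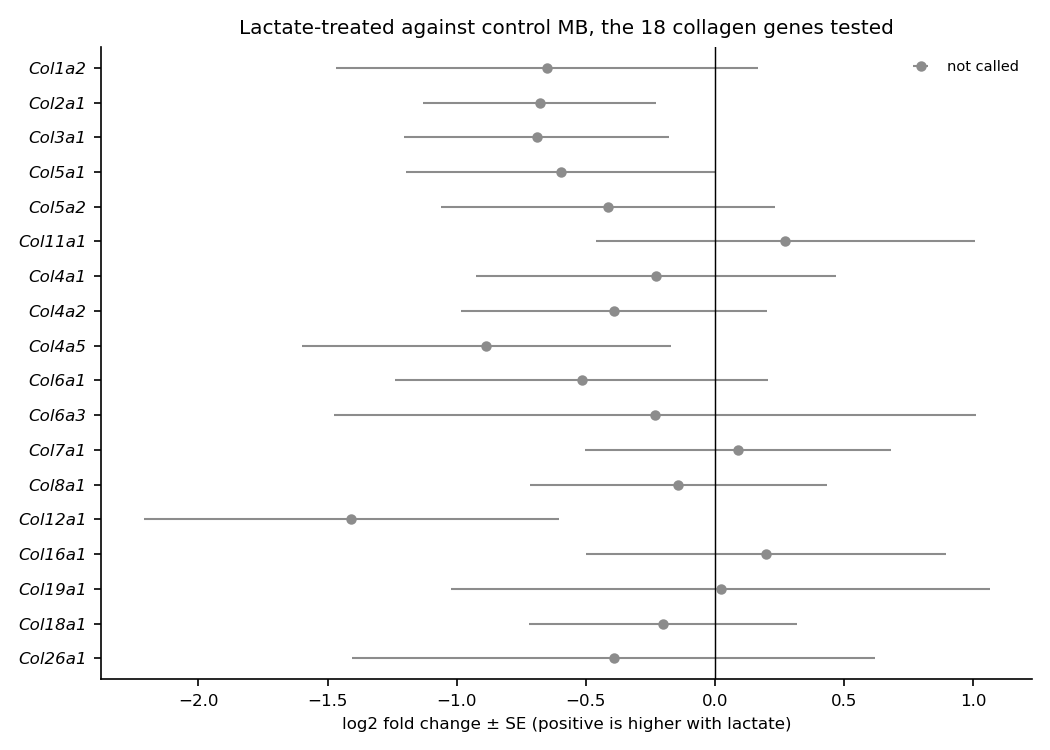
Log2 fold change of lactate-treated against control MB for the 18 collagen genes tested, with bars for the standard error of the edgeR fit. All points are grey, as no gene was called, and 14 of the 18 lie to the left of 0.

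The lactate-treated replicates lay apart for most collagen genes. Of 17 collagen genes with more than 3 counts in both lactate-treated libraries, 15 were higher in replicate 2, with a median ratio of replicate 1 to replicate 2 of 0.482. Col4a1 had 95.9 and 392 CPM in the lactate-treated libraries and 337 and 257 CPM in the controls, with a log2FC of -0.23 ± 0.70 (SE, adjusted p = 0.99997 in the edgeR test). Col18a1 had 217 and 451 CPM with lactate and 487 and 306 CPM in the controls, with a log2FC of -0.20 ± 0.52. For Col4a1 both controls and for Col18a1 one of the controls fell between the treated values. Col3a1 had 170 and 262 CPM with lactate and 502 and 219 CPM in the controls (log2FC -0.69 ± 0.51). Col12a1, with 8 and 39 counts after lactate and 77 and 104 in the controls, had the smallest unadjusted p in the edgeR test, 0.129, with a log2FC of -1.41 ± 0.80 (SE). Col2a1 had 14.3 and 18.4 CPM with lactate and 26.1 and 26.5 CPM in the controls, without overlap (log2FC -0.68 ± 0.45, SE, unadjusted p = 0.182 in the edgeR test). The genes of types V and VIII overlapped, as Col5a2, with 46.5 and 162 CPM with lactate and 141 and 145 CPM in the controls, and Col8a1, with 64.9 and 158 CPM against 99.5 and 148 CPM. Col6a2 had 0 counts in all 4 MB libraries, and Col1a1 had 1 and 5 counts with lactate against 8 and 4. Without lactate-treated replicate 2, 6 collagen genes had an unadjusted p under 0.05 and 0 were called, and without lactate-treated replicate 1, Col4a1, Col4a2, Col6a3 and Col18a1 were on the positive side. Differences larger than their standard error, as for Col12a1, Col2a1 and Col3a1, were also not called. By the threshold alone, a call needed a difference well over 1 standard error. Smaller changes could not be detected with 2 libraries per group and no replicate block.

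The genes that fold, export, process, crosslink and bind collagen moved with MT in part. For comparison with the 5 lists below, 11% of all genes tested were called higher in MT and 6.86% lower, with a median log2FC of 0.07. Of 19 genes of collagen folding and modification, 18 were tested, 6 were higher in MT and 0 lower, with a median log2FC of 0.77. P4ha2, a prolyl hydroxylase subunit that stabilizes the triple helix, had 529 and 118 CPM in MT and 13.6 and 11.1 CPM in MB (log2FC 4.70 ± 0.72, SE, adjusted p = 0.00203). Plod2, a lysyl hydroxylase, had 637 and 124 CPM in MT and 34.0 and 41.9 CPM in MB (log2FC 3.31 ± 0.71, SE, adjusted p = 0.0103). Serpinh1, the collagen chaperone HSP47, which was picked after its values were seen, had 1174 and 1172 CPM in MB and 2919 and 1747 CPM in MT and was not called (log2FC 0.98 ± 0.60, SE, adjusted p = 0.291).

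Of 12 genes of procollagen export and processing, 10 were tested, 3 (Adamts2, Bmp1 and Tll1) were higher and 1 was lower in MT, with a median log2FC of 1.02. Adamts2, which cuts off the amino-terminal propeptide, had 228 and 87.1 CPM in MT and 19.1 and 5.93 CPM in MB (log2FC 3.65 ± 0.68, SE, adjusted p = 0.00539). Tll1, a protease related to Bmp1, had no count in MB and 32 and 17 in MT and was at least 6.31-fold higher. It passed the filter only through its MT libraries and had to be higher there. Pcolce2, an enhancer of the carboxy-terminal cleavage, was lower, with 25.3 and 22.5 CPM in MT and 139 and 153 CPM in MB (log2FC -2.62 ± 0.43, SE, adjusted p = 0.0030). Of the 5 crosslinking genes, 4 were tested and 2 were higher, with a median log2FC of 2.38. Lox, the lysyl oxidase that crosslinks fibrils, had 1962 and 1157 CPM in MT and 9.67 and 32.7 CPM in MB (log2FC 6.18 ± 0.81, SE, adjusted p = 0.000770), and Loxl1 had a log2FC of 2.89 ± 0.54 (SE, adjusted p = 0.00530).

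Of the 8 genes of receptors and uptake, 6 were tested and 2 were higher, with a median log2FC of 1.94. These were Itga11, the integrin chain for fibrillar collagen, with 867 and 409 counts in MT and 0 and 1 in MB, and Itga1, with 161 and 84 counts in MT and 1 and 2 in MB. Their count ratios were 1011, with an interval of 181 to 39963, and 64.7, with an interval of 21.9 to 316. Itga11 and Itga1 were under the filter's cutoff of 1.19 CPM in both MB libraries, so they could be tested only because of MT. The other tested genes were not called, with a log2FC of 1.79 for Itgb1, 2.09 for Mrc2, -0.84 for Ddr1 and -0.36 for Ddr2. Of 11 regulators of fibril assembly, 8 were tested, 5 were higher and 0 lower, with a median log2FC of 4.73. Among those called, Dcn, Fmod and Postn were under the filter's cutoff in both MB libraries. They could be tested only because of their MT libraries and had to be higher there, which also raises the median. Dcn, the proteoglycan decorin that binds type I fibrils, had 437 and 106 CPM in MT and 0 and 2 counts in MB, and Postn, the matricellular protein periostin, had 543 and 202 CPM in MT and 0 and 6 counts in MB (log2FC 9.95 ± 1.02, SE, adjusted p = 0.000201). None of the tested partner genes of these 5 lists was called after lactate at either threshold.

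Markers of other cell types moved in part with the collagen genes, and their part in the results was not tested. The counts called below stand beside 11% of all genes tested called higher in MT and 6.86% called lower. Of 14 fibroblast markers, 9 were tested, and 3 (Dcn, Gsn and Mfap5) were higher in MT and 1 (Osr1) lower. The list summed to 523 and 362 CPM in MB, 2113 and 1259 CPM in MT and between 1366 and 1542 CPM in GAS. Gsn alone had 365 and 127 CPM in MB and 1442 and 1020 CPM in MT. Dcn and Mfap5 were under the filter's cutoff of 1.19 CPM in both MB libraries, so they could be tested only because of MT. The other tested markers were not called, with a log2FC of 1.46 for Pdgfra, 1.39 for Ly6a, -0.29 for Cd34, -0.39 for Tcf7l2 and -1.54 for Smoc2. Dpt, Clec3b and Lum had 0 counts in MB and 41, 1 and 81 counts in MT replicate 1 against 8, 1 and 6 in MT replicate 2, and Tcf21 had 0 counts everywhere. Dcn is also among the regulators of fibril assembly above, as are Lum and, from the tenocyte list, Fmod. Of 7 pericyte and smooth muscle markers, 4 were tested and 3 (Notch3, Pdgfrb and Abcc9) were higher in MT, with sums of 18.2 and 8.67 CPM in MB and 160 and 260 CPM in MT. Abcc9 was under the filter's cutoff in both MB libraries, so it could be tested only because of MT. Notch3 had 3.53 and 0.114 CPM in MB, the latter under the cutoff. Pdgfrb alone had 11.5 and 4.33 CPM in MB and 113 and 202 CPM in MT. Rgs5, the tested marker that was not called, had 22 and 35 counts in MB and 139 and 1 in MT. Of 8 tenocyte markers, 4 were tested and 2, Fmod and Egr1, were higher in MT, with sums of 139 and 104 CPM in MB and 249 and 569 CPM in MT. Most of these sums was Egr1, which many cell types express, with 126 and 86.6 CPM in MB and 210 and 493 CPM in MT. Fmod was under the filter's cutoff in both MB libraries, so it could be tested only because of MT. Tnmd, Kera, Thbs4 and Chodl had 0 counts in MB, 7, 6, 42 and 5 in MT replicate 1 and 0, 0, 1 and 2 in MT replicate 2. Of 8 chondrocyte and osteoblast markers, 3 were tested and 2, Sox9 and Runx2, were lower, with sums of 400 and 260 CPM in MB and 82.2 and 73.0 CPM in MT, while Bglap and Ibsp had 0 counts in every library and Acan had 96 counts in MT replicate 1 and 0 in the other 8 libraries. Of 7 endothelial, 7 macrophage and 6 Schwann cell markers, 1 each was tested and 0 were called. The endothelial markers summed to 38.2 and 12.7 CPM in the MT replicates, 16.6 and 6.96 CPM in MB and between 194 and 210 CPM in GAS, with Cdh5, Kdr and Tie1 at 0 in MB and in MT replicate 2. The macrophage markers summed to 40 and 4.16 CPM in MT, 1.83 and 2.05 CPM in MB and between 41.5 and 48.8 CPM in GAS, with Ptprc, Adgre1 and C1qa at 0 in MB and in MT replicate 2. The Schwann cell markers summed to 9 and 1.10 CPM in MT, 1.05 and 2.74 CPM in MB and between 20 and 38.5 CPM in GAS, with Sox10 and Cdh19 at 0 in MB and in MT replicate 2.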

How the data were processed

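RNA-seq was performed on 3 GAS, 2 MT, 2 control MB and 2 lactate-treated MB samples. The authors trimmed reads with Trim Galore 0.6.6, aligned them to mm10 with HISAT2 2.2.1, and deposited raw read counts per gene, with no normalization, made with featureCounts of Subread 2.0.1. The release of the gene annotation, the strand setting and the treatment of reads that map to several places are not given in the sources used here. All columns were counts, and 0 columns of per-sample values were left unused.

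Symbols and exonic lengths were taken from the GRCm38 annotation by Ensembl identifier, which found 36429 of the identifiers in the GAS files and 45229 in the culture files. Tests were run with edgeR 4.0.16 in R 4.3.3 (quasi-likelihood test after filterByExpr and TMM scaling, Benjamini-Hochberg adjustment over all genes tested), separately for MT against MB and for lactate-treated against control MB. Genes were called at an adjusted p under 0.05 for MT, or an unadjusted p under 0.01 for lactate, and an absolute log2FC over 0.5. SE is the log2FC divided by the square root of the F statistic. CPM and RPKM were computed with TMM factors set within GAS and within the cultures separately, and RPKM over the union of exons or, as an alternative, the longest transcript. Shares and detection limits use the total counts. Genes with 3 counts or fewer in each MB library are given by the ratio of summed counts with an exact 95% interval, or by a bound against 3 counts per library where both were at 0. Alternatives were RLE scaling, DESeq2 1.42.0, no filter, at least 10 counts in every library, a replicate block, a joint fit of the 6 cultured libraries, and each library left out. The script was tested on simulated counts. Exact permutation of 2 against 2 libraries cannot go below a two-sided p of 0.333, so no such test is given. The members and gene lists were chosen with earlier results of these data known. Named are collagen genes that were called, had a mean over 1 RPKM in a group, or share a type or neighbour with such a gene, and per partner list at most the 2 largest changes called in each direction, besides the exceptions stated.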

Additional observations from a re-analysis of the deposited data

How the results depend on the processing

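Of the alternatives to the comparison of MT with MB, a minimum of 10 counts in every library left 17 collagen genes to test and 12 higher. The others that left no library out gave between 20 and 23 higher. The number lower was 1, and 2 by DESeq2, with Col18a1 beside Col2a1, and 1 to 2 with a library left out. Partner genes called lower numbered 2 by DESeq2, 2 without a filter and 1 to 2 with a library left out. Without a filter the median log2FC of all genes was 1.82. Among single genes, 6 values passed the threshold only under an alternative, 16 lost it, and with a library left out the log2FC in MT ranged from -0.64 to 2.92 for Col17a1 and from -0.81 to 0.98 for Col7a1. For lactate it ranged from -1.70 to 0.50 for Col4a1, -1.46 to 0.23 for Col4a2, -4.43 to 0.75 for Col6a3 and -0.92 to 0.29 for Col18a1. Over counts on protein-coding genes the mean share in MB was 0.175%. The cause of these changes was not tested.

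Replicate numbers are shared between the groups, but the labels do not say what a number marks, and with 2 pairs it was treated as a name. Deviations from the group means correlated across genes at -0.132 for MT with MB and 0.705 for lactate-treated with control MB. With the replicate block, 21 collagen genes were higher and 1 lower in MT, Col4a1 was not called (adjusted p = 0.0948), and after lactate 1 collagen gene, Col12a1, was lower by the unadjusted p (log2FC -1.63, adjusted p = 0.9999 in edgeR's test), among 7 genes higher and 6 lower in all. With the pairing crossed, chosen after seeing the data, 21 were higher and 2 lower in MT. With 2 libraries per group, small differences could not be detected, and genes under 3 counts per library were beyond the depth.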
